A study of Mus musculus with 6 samples.

Results

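Ribosome biogenesis genes encode the enzymes and assembly factors that make ribosomal RNA, cut and modify it, and fold it with ribosomal proteins into the small and the large ribosomal subunit. RNA polymerase I transcribes the precursor RNA in the nucleolus, small nucleolar ribonucleoproteins (snoRNPs) modify its bases and sugars, and processing factors then release the 40S and 60S particles. The demand for ribosomes follows growth, and the transcription factor MYC is a known activator of many of these genes. A set of 45 such genes was examined, chosen by gene symbol with earlier results of these data known, and sorted into 6 groups by role. By the rule that a row of the array must carry exactly 1 symbol, 42 of the 45 were measured, out of 30142 genes. Nop56, Gnl3 and Ebna1bp2 had no value of their own, because their rows also carried a second symbol.

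RNA came from mouse acute myeloid leukaemia (AML) cells induced by MLL-AF9, a fusion oncogene, in recipient mice. The study compared 3 arrays of Dnmt3b-KO leukaemia cells with 3 of control leukaemia cells. Dnmt3b encodes a DNA methyltransferase, and the labels call the control a littermate control. Both groups carried MLL-AF9, and both were sorted by flow cytometry from bone marrow at the end stage of disease. Not given in the sources used here were the deleted exons, the means of deletion, the sort markers, the age of the mice and the number of donors per array. Values are log2 signals as the authors deposited them, and differences are Dnmt3b-KO minus control on that scale.

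The targeted gene, Dnmt3b, measured 6.47, 6.63 and 5.96 on the Dnmt3b-KO arrays, against 6.76, 6.83 and 6.78 on the control arrays. Every Dnmt3b-KO value lay below the control values, with a difference of -0.44 ± 0.17 (SE). At a limma adjusted p of 0.781 the gene missed the threshold, which is 0.05. Dnmt3b-KO replicate 3 stood apart from the other 5 arrays, with correlations across genes of 0.981 to 0.982 against 0.998 to 0.999 among those 5. It is therefore shown apart, and differences are given over 6 arrays and over the 5 arrays without it. All 9 measured MLL-AF9 leukaemia markers had differences above 0 over 5 arrays. All 9 lie above the median level of all genes, where 7352 of 15071 genes had a difference above 0. On replicate 3, 7 of the 9 lay below every control, and Itgam and Ptprc lay above. Among genes above the median level 55.7% were below and 29.5% above on that array. The median of all 9 on replicate 3 was -0.97 against replicates 1 and 2. The mean of 23 monocyte and macrophage markers was 6.37, 6.21 and 8.71 on Dnmt3b-KO replicates 1, 2 and 3, against 6.23 to 6.34 on the control arrays. On replicate 3, 15 of the 23 were above every control, 4 were below, and Marco, Cd163, Timd4 and Cd5l were within the controls. Among all genes 39.0% were above and 36.4% below on that array. In bulk RNA, fewer cells of a type and less RNA per cell cannot be told apart.

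The ribosome biogenesis genes were mostly somewhat lower on Dnmt3b-KO replicates 1 and 2 than on the control arrays, whereas Dnmt3b-KO replicate 3 scattered to both sides. Without replicate 3, 2 genes were called lower. Dkc1, the pseudouridine synthase of the box H/ACA snoRNPs, fell by 0.43 ± 0.055 (SE), and Nop16, a 60S assembly factor, by 0.35 ± 0.054. None of the 42 was called higher. The limma fit called 1.69% of all genes over these 5 arrays, 0.750% lower and 0.939% higher. Among the 15071 genes above the median level, where all 42 lie, it called 216 lower and 275 higher. With all 6 arrays, 0 of the 42 passed the threshold, as for 0% of all genes, and the smallest adjusted p among them was 0.574. At an unadjusted p under 0.05, limma over 6 arrays gave 8 of the 42, 7 of them lower, against 6.37% of all genes. Of the 15071 genes above the median level it gave 1394, 838 of them lower. Both calls over 5 arrays rest on every array: leaving out any 1 more gave 0 of the 42.

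The differences over 5 arrays were below 0 for 39 of the 42 genes, against 53.7% of all genes, and above 0 for Ncl, Ppan and Gnl2. Their median was -0.14, against -0.0096 over all genes and -0.0046 over genes above the median level, where all 42 lie. They ran from -0.43 to 0.19, with a median SE of 0.067. Over 6 arrays 30 were below 0 and 12 above, with a median of -0.12 against -0.0036 over all genes. Among genes above the median level, 51.2% were below 0 over 5 arrays and 60.4% over 6. An unadjusted p under 0.05 over 5 arrays was reached by 16 of the 42 with a lower level and by Gnl2 with a higher one, against 7.73% of all genes lower and 7.74% higher. Of the 15071 genes above the median level, 3655 reached it, 1773 of them lower.

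**Figure D1:**
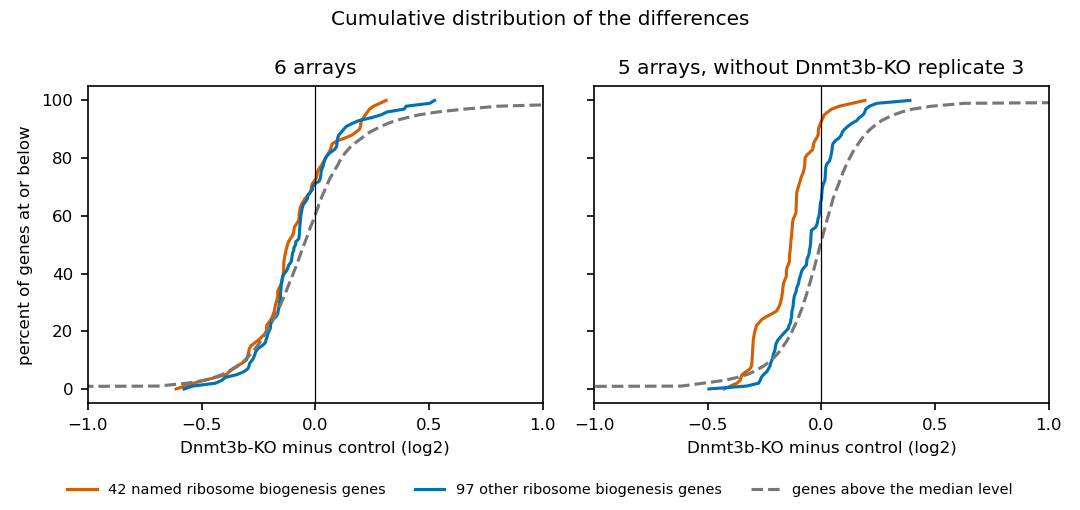
Cumulative percent of genes (vertical axis) at or below each difference, Dnmt3b-KO minus control in log2 units (horizontal axis), over 6 arrays (left) and over 5 arrays without Dnmt3b-KO replicate 3 (right). Lines stand for the 42 ribosome biogenesis genes, 97 other genes of the pathway and the genes above the median level. Over 5 arrays the line of the 42 genes lies left of 0 for 39 of them, and over 6 arrays for 30.

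Array by array, Dnmt3b-KO replicate 1 was below the control mean in 40 of the 42 genes, replicate 2 in 34 and replicate 3 in 21. Of the 15071 genes above the median level, 7556, 7763 and 9627 were below it on these arrays. Replicates 1 and 2 both lay below every control for 24 genes, above every control for Ppan and Gnl2, and overlapped the controls for 16. Among all genes 17.4% lay below in this way and 15.1% above, and the shares were 20.1% and 21.1% for genes above the median level. With replicate 3 included, 11 of the 42 were below every control, 2 above and 29 overlapped, against 8.21% and 6.68% of all genes, or 11.6% and 7.23% of genes above the median level. The genes also shifted together between arrays of 1 group: replicate 1 was lower than replicate 2 in 39 of the 42 Dnmt3b-KO pairs of values, and control replicate 2 was the highest control for 21. The same held for 7673 and 4466 of the 15071 genes above the median level. S phase genes shifted likewise, with Dnmt3b-KO replicate 1 below replicate 2 in 14 of 14 and control replicate 2 highest in 13 of 14. The part of such a shared shift in the results was not tested.

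**Figure D2:**
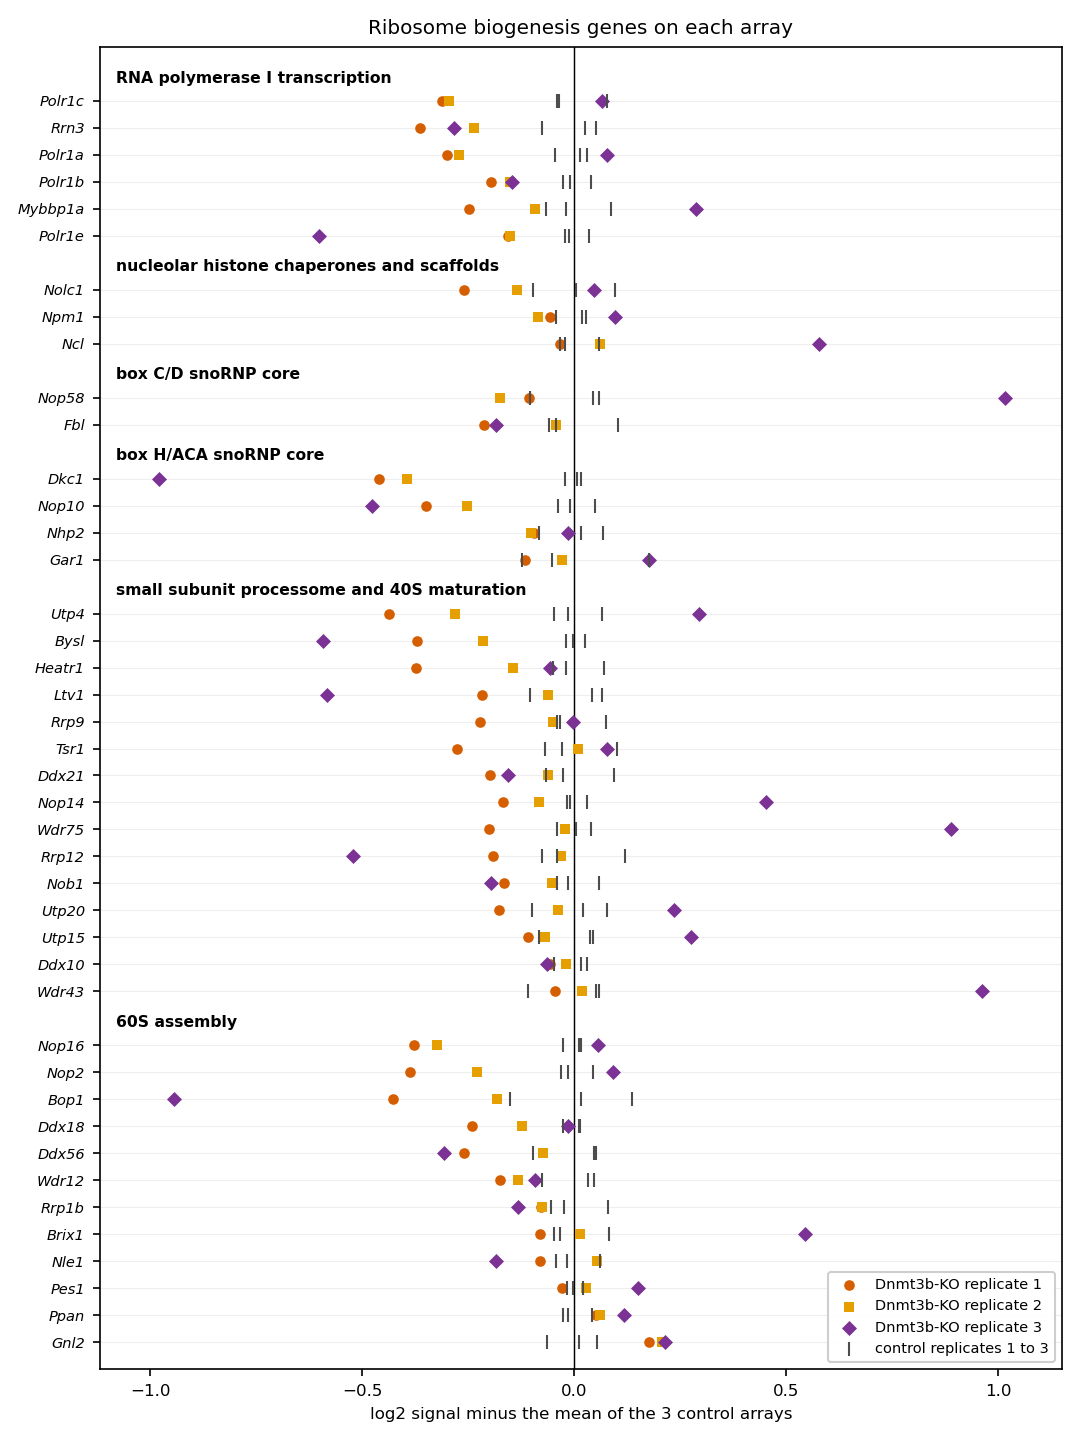
Each of the 42 measured genes, in its role group, on each array as log2 signal minus the mean of the 3 control arrays (horizontal axis). Circles, squares and diamonds are Dnmt3b-KO replicates 1, 2 and 3, and vertical ticks are the control arrays. Circles and squares lie mostly left of 0, and diamonds run from -0.98 (Dkc1) to 1.01 (Nop58).

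Among the core proteins of the box H/ACA snoRNPs, which turn uridines of ribosomal RNA into pseudouridines, Dkc1 showed the largest difference of the 42 genes over 6 and over 5 arrays. Dkc1, which also belongs to the telomerase ribonucleoprotein, measured 13.50, 13.56 and 12.98 on Dnmt3b-KO replicates 1, 2 and 3, against 13.97, 13.98 and 13.94 on the control arrays. The groups did not overlap, and replicate 3 was the lowest of the 6 arrays. Dkc1 fell by 0.43 ± 0.055 (SE) over 5 arrays (limma, adjusted p = 0.0304). Over 6 arrays the difference was -0.61 ± 0.16 and did not pass (limma, adjusted p = 0.651). With a replicate block the 5-array difference was -0.44 and the call was lost (limma, adjusted p = 0.10). Over all alternatives run on the 5 arrays, the limma adjusted p of Dkc1 ran from 0.0124 to 0.200.

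Nop10, which binds dyskerin directly in the same particle, had the smallest adjusted p of the 42 over 6 arrays. Its values were 6.82, 6.91 and 6.69 on the Dnmt3b-KO arrays, against 7.13, 7.21 and 7.16 on the control arrays. All 3 Dnmt3b-KO arrays lay below every control, but the differences of -0.36 ± 0.075 (SE) over 6 arrays and -0.30 ± 0.061 over 5 did not pass (limma, adjusted p = 0.574 and 0.0818). Gar1, another core subunit, measured 10.42, 10.50 and 10.71 on Dnmt3b-KO arrays, against 10.48, 10.71 and 10.41 on control arrays. Its groups overlapped, with a difference of -0.073 ± 0.10 over 5 arrays and 0.010 ± 0.11 over 6 (limma, adjusted p = 0.818 and 0.990). With the arrays centred on their medians the 6-array value of Gar1 was -0.0072. Nhp2, the remaining core protein, differed by -0.10 ± 0.065 over 5 arrays and -0.071 ± 0.065 over 6.

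Nop16 measured 8.70, 8.76 and 9.13 on Dnmt3b-KO replicates 1, 2 and 3, against 9.05, 9.09 and 9.09 on the control arrays. The first pair of replicates lay below every control and replicate 3 above every control. Nop16 fell by 0.35 ± 0.054 (SE) over 5 arrays (limma, adjusted p = 0.0420). Over 6 arrays the difference was -0.22 ± 0.12 and did not pass (limma, adjusted p = 0.830). With a variance trend and robust fitting, the 5-array call was lost (limma, adjusted p = 0.0528). The replicate block ended it too (limma, adjusted p = 0.135), and the range over all alternatives on the 5 arrays was 0.0228 to 0.252.

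The 100 bases before the start of Dkc1 and Nop16 are shown because these are the genes that passed the test. They were read from the RefSeq promoter table of GRCm38.p6, at chrX:75095754-75095853 on the plus strand and at chr13:54590075-54590174 on the minus strand, 5′ to 3′ along each gene. Capitals are kept for the motif letters defined further on, and these stretches hold none.
Dkc1: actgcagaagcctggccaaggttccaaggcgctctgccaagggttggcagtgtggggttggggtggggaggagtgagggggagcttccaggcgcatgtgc
Nop16: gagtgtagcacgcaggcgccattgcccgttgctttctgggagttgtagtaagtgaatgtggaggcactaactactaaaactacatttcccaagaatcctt
The Dkc1 stretch holds 2 CpG dinucleotides and the Nop16 stretch 3. CpG is the dinucleotide that DNA methyltransferases modify, and DNA methylation was not measured on these arrays.

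**Figure D3:**
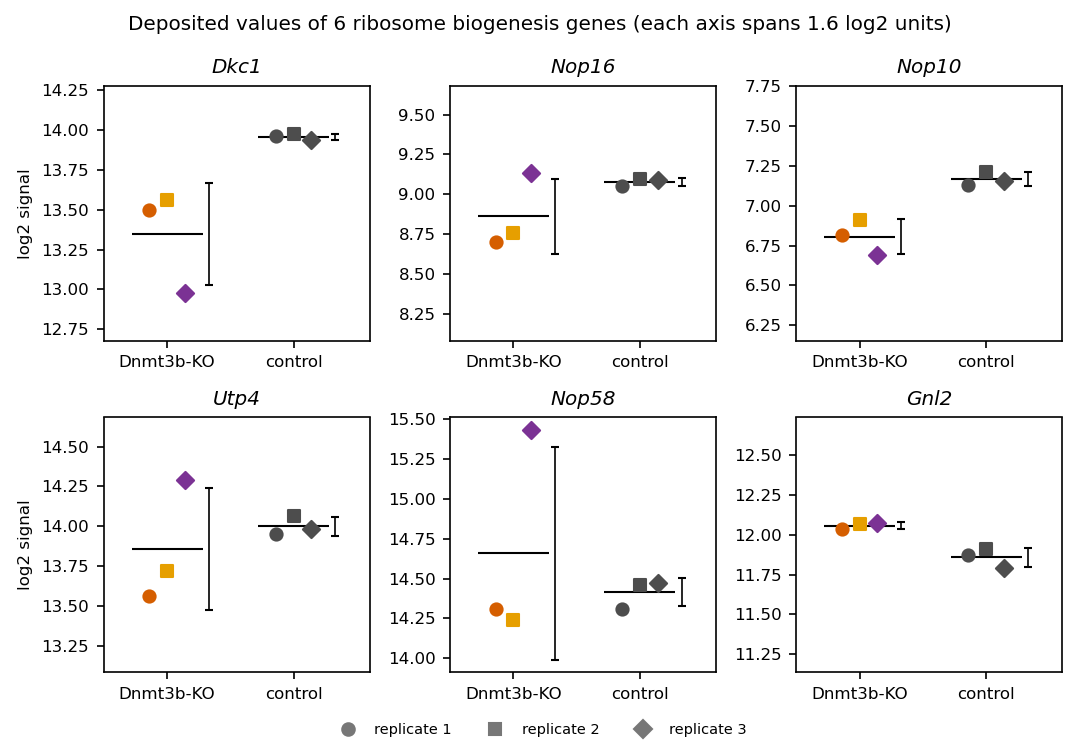
Log2 signal (vertical axis, spanning 1.6 units in each panel) of 6 ribosome biogenesis genes on the Dnmt3b-KO arrays (left) and the control arrays (right). Points are single arrays, with shapes for replicates 1 to 3, horizontal lines are means and bars are the SD of 3 arrays. Dkc1 and Nop10 do not overlap between groups, Gnl2 lies higher on all Dnmt3b-KO arrays, and replicate 3 is the highest array for Nop16, Utp4 and Nop58.

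The 6 genes of RNA polymerase I transcription were the group in which replicates 1 and 2 lay below every control for each gene, against 20.1% of genes above the median level. Of 7 other measured genes of RNA polymerase I and ribosomal DNA transcription, 2 lay below in this way, 1 lay above and 4 overlapped. The median difference of the 6 genes was -0.23 over 5 arrays and -0.17 over 6, and 0 of 6 passed the threshold. Rrn3, the factor that recruits the polymerase to the ribosomal DNA promoter, measured 10.53, 10.66 and 10.61 on Dnmt3b-KO arrays, against 10.92, 10.82 and 10.94 on control arrays. Its groups did not overlap, and it differed by -0.29 ± 0.066 (SE) over 6 arrays and -0.30 ± 0.070 over 5 (limma, adjusted p = 0.600 and 0.111). For this gene replicate 3 was 0.014 above the mean of replicates 1 and 2. Polr1b, the second-largest subunit, was also below every control on all 3 Dnmt3b-KO arrays, at 9.29, 9.34 and 9.34 against 9.53, 9.46 and 9.48 on control arrays. Its difference was -0.17 ± 0.055 over 5 arrays and -0.17 ± 0.053 over 6 (limma, adjusted p = 0.202 and 0.705).

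Polr1a, the largest and catalytic subunit, measured 9.71, 9.74 and 10.09 on Dnmt3b-KO arrays, against 9.97, 10.04 and 10.03 on control arrays. It was low on replicates 1 and 2 and highest of all 6 arrays on replicate 3, and the difference was -0.29 ± 0.056 over 5 arrays and -0.16 ± 0.11 over 6 (limma, adjusted p = 0.0756 and 0.833). Polr1c, a subunit shared with RNA polymerase III, was also low on replicates 1 and 2 but within the controls on replicate 3, at 9.87, 9.89 and 10.25 on Dnmt3b-KO arrays against 10.15, 10.15 and 10.26 on control arrays. Its differences of -0.30 ± 0.062 over 5 arrays and -0.18 ± 0.12 over 6 did not pass (limma, adjusted p = 0.0820 and 0.833). Polr1e, another subunit, went the other way on replicate 3, at 6.30, 6.30 and 5.85 on Dnmt3b-KO arrays against 6.49, 6.44 and 6.43 on control arrays. All 3 Dnmt3b-KO values of Polr1e were below the controls, by -0.15 ± 0.053 over 5 arrays and -0.30 ± 0.13 over 6 (limma, adjusted p = 0.240 and 0.815).

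Mybbp1a encodes a nucleolar MYB-binding protein described as a repressor of ribosomal DNA transcription. It measured 12.34, 12.50 and 12.88 on Dnmt3b-KO arrays, against 12.52, 12.68 and 12.57 on control arrays. Replicates 1 and 2 lay below and replicate 3 above the controls, so the difference was -0.17 ± 0.077 over 5 arrays and -0.018 ± 0.15 over 6 (limma, adjusted p = 0.370 and 0.987). After repeated quantile normalization the 6-array value turned to 0.034.

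The abundant nucleolar scaffolds differed least over 5 arrays, with a median of -0.072 for 3 genes. Ncl, nucleolin, measured 15.14, 15.24 and 15.75 on Dnmt3b-KO arrays, against 15.15, 15.24 and 15.14 on control arrays. Replicate 1 lay among the controls, replicate 2 differed from the highest control in the third decimal, and replicate 3 lay above all of them, with a difference of 0.013 ± 0.062 over 5 arrays and 0.20 ± 0.17 over 6 (limma, adjusted p = 0.958 and 0.833). The 5-array value of Ncl was -0.015 after repeated quantile normalization. Npm1, nucleophosmin, a histone and ribosome chaperone that is often mutated in human AML, measured 16.14, 16.11 and 16.29 on Dnmt3b-KO arrays, against 16.23, 16.22 and 16.15 on control arrays. Again replicates 1 and 2 were just below and replicate 3 just above every control, with a difference of -0.072 ± 0.055 over 5 arrays and -0.016 ± 0.070 over 6, where quantile normalization gave 0.017. Nolc1, a chaperone of snoRNPs, measured 11.95, 12.07 and 12.26 on Dnmt3b-KO arrays, against 12.11, 12.30 and 12.21 on control arrays. Its difference was -0.20 ± 0.078 over 5 arrays and -0.12 ± 0.10 over 6 (limma, adjusted p = 0.302 and 0.833).

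Box C/D snoRNPs place methyl groups on ribose, and 2 of their 3 core genes in the set were measured. Fbl, fibrillarin, the methyltransferase, measured 11.95, 12.12 and 11.97 on Dnmt3b-KO arrays, against 12.10, 12.26 and 12.12 on control arrays. Its groups overlapped, with a difference of -0.13 ± 0.082 over 5 arrays and -0.15 ± 0.078 over 6 (limma, adjusted p = 0.549 and 0.828). Nop58, a scaffold of the same particle, measured 14.31, 14.24 and 15.43 on Dnmt3b-KO arrays, against 14.31, 14.46 and 14.47 on control arrays. Replicate 3 was 1.16 above the mean of replicates 1 and 2, the largest such gap of the 42 genes. The difference of Nop58 was -0.14 ± 0.071 over 5 arrays and 0.24 ± 0.33 over 6 (limma, adjusted p = 0.430 and 0.872). Quantile normalization gave 0.051 over 5 arrays, so its direction depends on the scaling as well as on replicate 3.

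All 15 genes of the small subunit processome and 40S maturation had a difference below 0 over 5 arrays, with a median of -0.13, and 0 passed the threshold. Over 6 arrays 10 of the 15 were below 0. Utp4, a subcomplex member that joins the nascent precursor early, measured 13.56, 13.72 and 14.29 on Dnmt3b-KO arrays, against 13.95, 14.06 and 13.98 on control arrays. Replicates 1 and 2 were below and replicate 3 above every control, with a difference of -0.36 ± 0.071 over 5 arrays and -0.14 ± 0.19 over 6 (limma, adjusted p = 0.0786 and 0.874). Bysl, bystin, needed for late steps of the 40S particle, measured 8.32, 8.47 and 8.10 on Dnmt3b-KO arrays, against 8.67, 8.72 and 8.69 on control arrays. All 3 Dnmt3b-KO arrays lay below the controls, by -0.29 ± 0.066 over 5 arrays and -0.39 ± 0.10 over 6 (limma, adjusted p = 0.102 and 0.651). Heatr1, the counterpart of yeast Utp10, measured 11.36, 11.59 and 11.68 on Dnmt3b-KO arrays, against 11.69, 11.81 and 11.72 on control arrays. Its groups did not overlap, although replicate 3 lay next to the controls, with a difference of -0.26 ± 0.085 over 5 arrays and -0.19 ± 0.097 over 6 (limma, adjusted p = 0.216 and 0.823).

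In the same group, Nop14, a processome scaffold, measured 11.07, 11.15 and 11.69 on Dnmt3b-KO arrays, against 11.26, 11.22 and 11.22 on control arrays. It was low on replicates 1 and 2 and high on replicate 3, with a difference of -0.13 ± 0.057 over 5 arrays and 0.066 ± 0.17 over 6 (limma, adjusted p = 0.371 and 0.938). Wdr43, which takes part in early processing of the precursor, was nearest to 0 of its group over 5 arrays, at -0.013 ± 0.073, and the most positive of the 42 over 6, at 0.31 ± 0.28 (limma, adjusted p = 0.965 and 0.833). It measured 12.43, 12.49 and 13.44 on Dnmt3b-KO arrays, against 12.53, 12.53 and 12.37 on control arrays. Wdr75, a partner of the early subcomplex named here after its values were seen, measured 10.63, 10.81 and 11.72 on Dnmt3b-KO arrays, against 10.79, 10.87 and 10.84 on control arrays. Its difference was -0.11 ± 0.072 over 5 arrays and 0.22 ± 0.28 over 6. Replicate 3 alone stood out for Wdr43 and Wdr75, at 0.97 and 1.00 above the mean of replicates 1 and 2. Utp15, Utp20, Rrp9, Rrp12, Ltv1, Nob1, Tsr1, Ddx10 and Ddx21 had differences of -0.14 to -0.038 over 5 arrays and -0.29 to 0.032 over 6, and none passed.

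Of the 14 genes of 60S assembly 12 were measured, with a median difference of -0.12 over 5 arrays and -0.11 over 6, and Nop16 was the member that passed. Nop2, which methylates a cytosine of the large ribosomal RNA, measured 11.20, 11.35 and 11.68 on Dnmt3b-KO arrays, against 11.63, 11.57 and 11.55 on control arrays. It was below every control on replicates 1 and 2 and above every control on replicate 3, with a difference of -0.31 ± 0.068 over 5 arrays and -0.17 ± 0.13 over 6 (limma, adjusted p = 0.0986 and 0.833). Bop1 and Pes1 belong to 1 complex with Wdr12, and their values differed in course. Bop1 measured 10.60, 10.84 and 10.08 on Dnmt3b-KO arrays, against 10.88, 11.04 and 11.16 on control arrays. All 3 Dnmt3b-KO values were below the controls, by -0.31 ± 0.11 over 5 arrays and -0.52 ± 0.20 over 6 (limma, adjusted p = 0.261 and 0.781). Pes1 measured 13.07, 13.13 and 13.25 on Dnmt3b-KO arrays, against 13.12, 13.08 and 13.10 on control arrays. Its groups overlapped, and the difference of -0.00099 ± 0.054 over 5 arrays was 0.012 with arrays centred on their medians. Over 6 arrays Pes1 differed by 0.050 ± 0.066. Wdr12 differed by -0.15 ± 0.063 over 5 arrays and -0.13 ± 0.062 over 6 (limma, adjusted p = 0.317 and 0.820).

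Gnl2 and Ppan were the genes higher than every control on all 3 Dnmt3b-KO arrays, and are named after their values were seen. Gnl2, a nucleolar GTPase of the pre-60S particle, measured 12.04, 12.07 and 12.07 on Dnmt3b-KO arrays, against 11.87, 11.91 and 11.79 on control arrays. The Dnmt3b-KO arrays lay close to each other, with a difference of 0.19 ± 0.060 over 5 arrays and 0.20 ± 0.057 over 6, which did not pass (limma, adjusted p = 0.200 and 0.664). Ppan, another pre-60S factor, measured 8.59, 8.60 and 8.66 on Dnmt3b-KO arrays, against 8.52, 8.51 and 8.58 on control arrays. Its difference was 0.055 ± 0.054 over 5 arrays and 0.076 ± 0.054 over 6 (limma, adjusted p = 0.733 and 0.833). Ddx18, Ddx56, Rrp1b, Brix1 and Nle1 had differences of -0.18 to -0.014 over 5 arrays and -0.21 to 0.16 over 6, and none passed. Brix1 measured 13.39 on Dnmt3b-KO replicate 3 and at most 12.93 on the other arrays.

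Replicate 3 of the Dnmt3b-KO group was above every control for 18 of the 42 genes, below every control for 18 and within the controls for 6. Among all genes 39.0% were above and 36.4% below, and among genes above the median level 29.5% were above and 55.7% below. Replicates 1 and 2 lay below and replicate 3 above every control for Polr1a, Mybbp1a, Npm1, Nop58, Utp4, Nop14, Nop2 and Nop16. This pattern took in 8 of the 42, against 6.09% of all genes and 6.38% of genes above the median level, and 0 of the 42 showed the opposite. Compared with the mean of replicates 1 and 2, replicate 3 was higher by more than 0.5 for 7 genes and lower by more than 0.5 for Dkc1 and Bop1, against 9.03% and 11.9% of all genes and 13.1% and 23.3% of genes above the median level. On the same array the S phase and G2/M lists had medians of -0.74 and -0.64 against replicates 1 and 2. There 13 of 23 macrophage markers were higher than replicates 1 and 2 by more than 1, against 1215 of all 30142 genes. The part of these other transcripts in the values of the ribosome biogenesis genes on replicate 3 was not tested.

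Several genes of the set carry snoRNA genes within their bodies, as many snoRNAs are processed from introns of host genes. By the RefSeq gene table of GRCm38.p6, 21 snoRNA genes lie inside 8 of the 45 genes, and 10 of them were measured, from 7 hosts. Of the 10, 0 passed the threshold in either comparison. On Dnmt3b-KO replicate 3, 8 of the 10 were above every control and 7 were higher than replicates 1 and 2 by more than 0.5. Among all 955 measured snoRNA genes, 46.5% were above every control on that array and 18.7% were higher by more than 0.5. Strand is not in that table, and the sources used here do not say whether the probes of a host row cover its snoRNA.

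Snora75, inside Ncl, measured 11.92, 11.98 and 13.98 on Dnmt3b-KO arrays, against 11.84, 11.68 and 11.83 on control arrays. The other measured snoRNA of Ncl, Snord82, did not share this, at 15.003, 14.70 and 14.88 on Dnmt3b-KO arrays against 14.91, 14.60 and 14.92 on control arrays. Within Nop58, Snord11 measured 11.29, 11.39 and 12.81 on Dnmt3b-KO arrays, against 11.66, 11.46 and 11.56 on control arrays. Replicate 3 was also the highest array for Snord70 and Gm26287 of Nop58 and for Snord92 of Wdr43, at 14.72, 10.21 and 8.52. Gm25520, inside Dkc1, was lowest on replicate 3, at 8.51, 8.80 and 8.20 on Dnmt3b-KO arrays against 8.80, 8.81 and 8.70 on control arrays, and Dkc1 itself was lowest there too. Gnl3 and Nop56 have no value of their own. Snord69 inside Gnl3 was at 18.33 on replicate 3 and at most 17.59 on the other arrays, and Snord110 inside Nop56 was at 16.31 and at most 15.70. The 6 measured genes that hold a snoRNA gene, grouped after their values were seen, had a median gap of replicate 3 to replicates 1 and 2 of 0.39, and the 36 without one a median of 0.11.

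**Figure D4:**
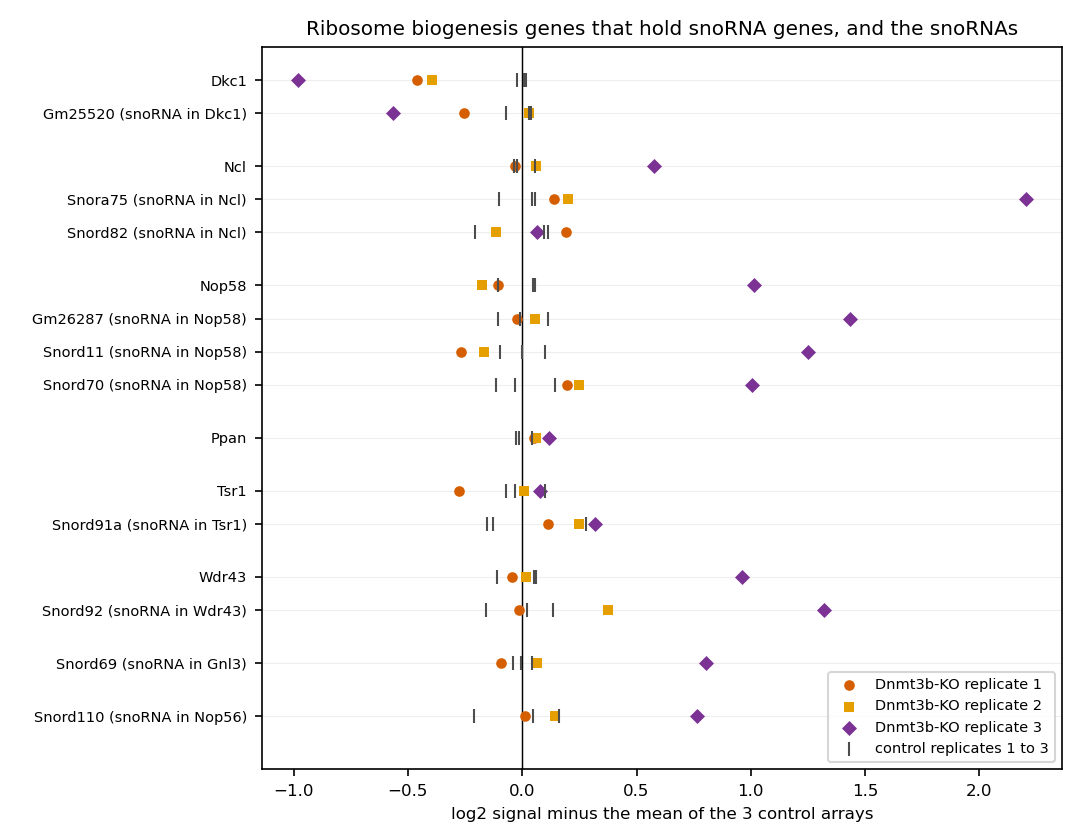
Measured ribosome biogenesis genes that hold snoRNA genes, and the measured snoRNAs inside them, inside Gnl3 and inside Nop56, as log2 signal minus the mean of the 3 control arrays (horizontal axis). Circles, squares and diamonds are Dnmt3b-KO replicates 1, 2 and 3, and vertical ticks are the control arrays. The diamonds of Nop58, Snora75, Snord70, Snord11, Gm26287 and Snord92 lie more than 1 above 0, and those of Dkc1 and Gm25520 lie below every control.

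The promoters were read for the letters that MYC with MAX, ETS factors and the transcription factor NRF1 are known to prefer. RefSeq windows of 250 bases before to 50 after the start were found for 40 of the 45 genes, in 43 windows, and not for Npm1, Fbl, Rrp12, Bop1 and Gnl2. The E-box letters CACGTG, which read the same on both strands, were in 10 of the 43 windows, or 23.3%, against 7.15% of all 32851 windows of that length. The ETS letters CCGGAAG, or CTTCCGG on the other strand, were in 15 of the 43, or 34.9%, against 8.86%. The NRF1 letters, a longer run, were in 0 of the 43 windows, against 0.971% of all windows. With so low a share over all windows, 0 of 43 does not show a lack of them. The E-box and ETS letters do not contain each other, and a match is a run of letters, not a binding site. All these letters hold a CpG, and windows of the set are richer in CpG. The median was 15 in the 250 bases before the start, against 6 over all windows. The shares were not compared at a like CpG content, so the part of CpG content in them was not tested.

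Nop2 and Rrn3 are among the 5 genes that hold both the E-box and the ETS letters. The 100 bases before each start are shown because these genes differed by about 0.3 over 5 arrays, with the E-box and ETS letters that lie whole within them in capitals, from chr6:125131783-125131882 and chr16:13780599-13780698 of GRCm38.p6, both on the plus strand. The ETS letters of Rrn3 nearest its start, at chr16:13780694-13780700, cross the end of the printed stretch and are in lower case there.
Nop2: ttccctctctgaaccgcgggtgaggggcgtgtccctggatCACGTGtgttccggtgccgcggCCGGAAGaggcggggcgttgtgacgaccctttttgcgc
Rrn3: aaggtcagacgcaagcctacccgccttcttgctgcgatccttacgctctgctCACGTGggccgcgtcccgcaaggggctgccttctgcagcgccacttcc
Of the 11 E-boxes found, 8 lie after the start and 3 before it. Short stretches around 4 of those after the start are shown for genes described above, with the E-box in capitals, from chr8:106893644-106893671, chr17:71616221-71616248, chr11:3963966-3963993 and chr11:72441356-72441376, all on the plus strand.
Utp4: gcgcaagcgcgCACGTGgggccggggcg
Wdr43: gcccgggcgaaCACGTGgctgccgcgga
Pes1: cctaggcagggCACGTGcgggaggaagt
Mybbp1a: tcttctgagccCACGTGtttg
These 4 genes ran from -0.36 (Utp4) to -0.00099 (Pes1) over 5 arrays. The 10 genes with an E-box had a median difference of -0.14 over 5 arrays, and the 27 measured genes with a window and no E-box also had -0.14. With and without the ETS letters the medians were -0.15 for 14 genes and -0.14 for 23.

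Windows of the set held more CpG than most, with a median of 15 in the 250 bases before the start, against 6 over all windows. The count ran from 0 for Nop10 to 47 for Utp4, and was 5 for Dkc1 and 12 for Nop16. Myc itself measured 12.86, 12.67 and 11.22 on Dnmt3b-KO arrays, against 12.90, 12.59 and 12.66 on control arrays. It overlapped the controls on replicates 1 and 2 and was lowest on replicate 3, with a difference of 0.054 ± 0.11 over 5 arrays and -0.46 ± 0.44 over 6 (limma, adjusted p = 0.892 and 0.836).

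A further 105 genes of the pathway were listed beside the set, and 97 were measured. None of the 97 passed the threshold of limma in either comparison, and at an unadjusted p under 0.05 there were 7 over 6 arrays and 23 over 5, 16 of the 23 lower. All 97 lie above the median level, where 1394 of the 15071 genes reached it over 6 arrays and 3655 over 5, 1773 of them lower. The median difference of the 97 over 5 arrays was -0.048, against -0.14 for the 42 genes, with 64 of 97 below 0 and a range of -0.49 to 0.39. Over 6 arrays the median of the 97 was -0.087, with 69 below 0, against -0.12 and 30 below 0 for the 42. In percent, 71.1% of the 97 and 71.4% of the 42 were then below 0. Both lists and the 5-array comparison were chosen with earlier results of these data known, and the lists were not tested against each other. By role, differences over 5 arrays were below 0 for 5 of 7 genes of RNA polymerase I and ribosomal DNA transcription, 27 of 41 of the small subunit, 26 of 38 of 60S assembly and 6 of 11 of the RNA exosome, which trims ribosomal RNA. On Dnmt3b-KO replicate 3, 24 of the 97 were above every control and 56 below, against 29.5% and 55.7% of genes above the median level.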

How the data were processed

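Affymetrix mouse arrays measured total RNA of sorted leukaemia cells, on 3 Dnmt3b-KO and 3 control arrays, grouped by their titles. The authors deposited log2 signals, normalized by RMA per the submitters' processing notes. Its version, and a genome build, were not given in the sources used. Deposited log2 values reach 19.59, above the 16 bits of a scanner, so a scaling step that is not stated was applied, and differences are not converted to folds. Of 72688 rows, 6732 were controls, 30604 carried exactly 1 symbol in an older platform annotation (827 updated through the gene ID), 2146 carried several and 33206 none. The highest-mean row per gene was kept, which left 30142 genes, and each of the 42 genes measured had 1 such row. No filter on low values was applied to the test.

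The genes of the set, the other gene lists and the comparison over 5 arrays were chosen with earlier results of these data known. Differences were tested over all genes by the lmFit and eBayes functions of limma 3.58.1 (R 4.3.3), with Benjamini-Hochberg adjustment and a threshold of 0.05, and the scripts were tested on simulated data. Values per array are given for genes past the threshold, for the 2 genes of each role group with the largest 5-array difference (3 in the groups of over 10), for the gene nearest to 0, and for genes with replicate 3 on the opposite side of the controls from replicates 1 and 2. Markers of other cells were counted too. The mean of 5 erythroid markers was 4.67, 4.55 and 4.53 on Dnmt3b-KO arrays and 5.30, 5.26 and 4.97 on control arrays, and 0 passed. All 5 differed by less than 0 in both comparisons, against 51.2% of all genes over 6 arrays and 53.7% over 5. On all 3 Dnmt3b-KO arrays 4 of the 5 lay below every control, against 8.21% of all genes. Of 7 lymphoid markers 0 passed, with 3 below 0 and 4 above in both comparisons. The part of cell content in the results was not tested. Among leukaemia markers, Meis1 rose by 0.65 ± 0.055 (SE) over 5 arrays (limma, adjusted p = 0.0111), but measured 10.21 on Dnmt3b-KO replicate 3, below every control, and differed by 0.049 ± 0.50 over 6 arrays (adjusted p = 0.990). Among 14 G2/M genes Aurka fell by 0.33 ± 0.054 over 5 arrays (limma, adjusted p = 0.0473) and differed by -0.50 ± 0.15 over 6 (adjusted p = 0.679), and 0 of 14 S phase genes passed. As alternatives, the fit was repeated with array weights, a variance trend with robust fitting, a replicate block, quantile normalization, centring, genes above the median level only, the mean of rows, a threshold of 0.1, no empirical Bayes and leaving out each array. Same-numbered Dnmt3b-KO and control arrays deviated together with correlations of 0.126, 0.033 and 0.108, and differently numbered ones with -0.117 to 0.089. Each control array correlated most with its same-numbered Dnmt3b-KO array. The same-numbered values were not all over 0.1, so the numbers were not taken as pairs, but a pairing is not excluded. Promoter windows and snoRNA positions are from RefSeq tables of GRCm38.p6, and snoRNAs were matched by position inside a gene. Since no label states that the arrays come from separate mice, the spread behind the p-values is that among these samples and may be technical. The number of arrays limits the precision.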

Additional observations from a re-analysis of the deposited data

How the results depend on the processing

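Over 6 arrays 0 of all genes passed with limma in each alternative but these: array weights gave 103, with a weight of 0.112 for Dnmt3b-KO replicate 3 against 1.26 to 2.17 for the others, and leaving out 1 array gave 0 to 509, the 509 without Dnmt3b-KO replicate 3. With 1 array left out, 0 to 2 of the 42 ribosome biogenesis genes passed, and 26 to 39 had a difference below 0. Over 5 arrays the count of all genes, 509, was 996 among genes above the median level, 1148 at a threshold of 0.1, 96 with the replicate block, 0 with no empirical Bayes and 13 to 262 with 1 more array left out. Of the 42 genes 2 passed, against 6 among genes above the median level and 7 at a threshold of 0.1. The count was 1 with a variance trend and robust fitting, 0 with the replicate block, 0 with no empirical Bayes and 0 with any further array left out. Between 34 and 40 were then below 0. The genes added among those above the median level were Polr1a, Polr1c, Nop10 and Utp4, where fewer genes were tested. The other 97 pathway genes had 0 calls in every alternative. The directions of small differences turned as follows. Over 6 arrays, array weights gave -0.11 for Nop58, -0.046 for Gar1 and -0.10 for Nop14, quantile normalization gave 0.034 for Mybbp1a and 0.017 for Npm1, and centring gave -0.0072 for Gar1. Over 5 arrays, quantile normalization gave -0.015 for Ncl and 0.051 for Nop58, the replicate block gave -0.0041 for Ncl, and centring gave 0.012 for Pes1. With 1 array left out, 6-array values ran from -0.073 to 0.098 for Gar1, -0.17 to 0.097 for Mybbp1a, -0.072 to 0.018 for Npm1, -0.36 to 0.0055 for Utp4, -0.14 to 0.45 for Nop58, -0.013 to 0.49 for Wdr43, -0.13 to 0.18 for Nop14 and -0.00099 to 0.089 for Pes1. The 5-array values ran from -0.14 to 0.015 for Gar1, -0.034 to 0.060 for Ncl, -0.068 to 0.018 for Wdr43 and -0.029 to 0.027 for Pes1. Where a call or direction changed, the cause was not tested. The replicate numbers are not taken as pairs, the block changed no call over 6 arrays, and over 5 arrays it leaves control replicate 3 without a partner.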
